A study of Mus musculus with 40 samples.

Results

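Type A intercalated cells are the acid-secreting cells of the connecting tubule and collecting duct. A proton pump of many subunits, the vacuolar ATPase, moves acid into the lumen, and the anion exchanger encoded by Slc4a1 returns bicarbonate to the blood, with carbonic anhydrase supplying both ions. The neighbouring type B cells run the opposite exchange through pendrin (Slc26a4), and principal cells take up sodium and water through epithelial sodium channels and aquaporins.

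The nuclei described here are those that the authors' coarser annotation, with 30 classes, calls ICA. The class was taken as the one with at least 50 nuclei and the highest Slc4a1 level, which was 215 CPM (molecules of the gene per 1000000 molecules of the class, pooled over mice) in ICA against 17.1 in the next class. It held 293 of 16500 nuclei. The members were thus chosen by their measured Slc4a1 level and by clusters made from the same expression values, so the levels of its marker genes are given as a description and carry no test.

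The nuclei came from the right kidney of male C57BL/6 mice aged 8 to 12 weeks, killed 24 h after unilateral nephrectomy (UNx), in which the other kidney was removed, or after a sham operation. No allele or drug was added in either group. Each group had 2 mice, with 1 kidney section from each, and the labels put sham 1 and UNx 1 in batch 3 and sham 2 and UNx 2 in batch 4. Nuclei were freed by lysis, spun through sucrose, sorted on a DNA dye and profiled with a droplet 3′ kit. Such a preparation is meant to leave out most cytoplasmic RNA, and how much of it stayed was not measured.

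The class gave 117 nuclei in sham 1, 28 in sham 2, 98 in UNx 1 and 50 in UNx 2. Their median depth was 6836, 7587, 6598 and 8706 molecules per nucleus in that order. The batch 4 libraries stood apart. Mitochondrially encoded transcripts made up 5.38% of the class molecules in sham 2 and 9.06% in UNx 2, against 0.813% in sham 1 and 1.49% in UNx 1. Nuclei above 15000 molecules numbered 7 in sham 2 and 12 in UNx 2 and none in batch 3, and they held 58.8% and 51.7% of the class molecules of those libraries. Libraries shared 18 cell barcodes among all nuclei, and 1 nucleus of the class carried a shared barcode.

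The Atp6v1b1 promoter is shown because this pump subunit gene is one of the 3 genes that mark the class and because the forkhead factor Foxi1, itself a marker of intercalated cells, is known to act on pump subunit genes. The 250 bases before the RefSeq transcription start (chr6:83742767-83743016, plus strand, GRCm38.p6) follow, with the letters TGTTTA in capitals.
Atp6v1b1: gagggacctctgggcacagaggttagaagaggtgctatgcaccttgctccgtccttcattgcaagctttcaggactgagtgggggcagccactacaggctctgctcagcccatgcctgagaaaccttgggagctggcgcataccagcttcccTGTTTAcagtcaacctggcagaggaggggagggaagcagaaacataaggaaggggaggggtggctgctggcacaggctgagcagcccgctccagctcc

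TGTTTA, the core letters of forkhead motifs, begins 98 bases before the start and occurs there 1 time, and its reverse complement TAAACA occurs 0 times. Either form was present in 12.0% of the 32851 mouse promoter windows of the same length, so the match is common and is a description only. Of the 12 genes that lead the class profile below, 9 were in the promoter table, and the windows of Pdlim3 and Rorb held the letters.

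Each marker gene fixed for type A cells was higher in these nuclei than in all other nuclei together in every mouse, although some are shared with type B cells. Slc4a1 (chromosome 11, 102348824 to 102366203, minus strand, mm10) stood at 258 CPM in sham 1, 163 in sham 2, 293 in UNx 1 and 101 in UNx 2, while all other nuclei lay between 0.549 and 5.92. Kit, a receptor tyrosine kinase gene (chromosome 5, 75574916 to 75656722, plus strand), stood at 910.1, 504, 918 and 345 CPM in the same order, against 1.40 to 5.39 in other nuclei. For Atp6v1b1, the pump subunit whose loss causes distal renal tubular acidosis (chromosome 6, 83742990 to 83758855, plus strand), the class values were 546, 296, 729 and 224 CPM. The type B class gave 729.8, 271, 580.1 and 299 CPM for Atp6v1b1, so this gene did not separate the 2 intercalated classes. All 3 genes were higher in each batch 3 library than in either batch 4 library.

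The other fixed markers were also higher in the batch 3 libraries. Aqp6, a water channel of intracellular vesicles in these cells, stood at 652, 241, 479 and 207 CPM. Dmrt2, a transcription factor gene, stood at 340.1, 114, 302 and 91.0 CPM. The receptor gene Adgrf5 gave 1884, 1102, 2048 and 1170.4 CPM. Foxi1 was at 76.1, 22.6, 77.7 and 33.3 CPM, and was higher in the type B class in every mouse, at 105, 34.6, 149.8 and 52.6. Summed over the 8 type A markers, the class gave 5106 and 2488 CPM in the sham mice and 5240 and 2373 in the UNx mice, and other nuclei gave 83.0 to 97.5.

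Ratios of the class to all other nuclei, pooled over mice, put Dmrt2 first at 355-fold among genes of at least 50 CPM in the class in every mouse. Kit followed at 215-fold, Clnk, an adaptor protein gene, at 201-fold, Pdlim3, an actin-associated LIM protein gene, at 179-fold, and Aqp6 at 141-fold. Slc4a1 was 82.6-fold higher and Calcr, the calcitonin receptor gene, 74.2-fold. The remaining leaders were the nuclear receptor gene Rorb at 69.2-fold, the pump subunit Atp6v0d2 at 62.3-fold, Kctd16 at 52.2-fold, Oxgr1, the receptor for oxoglutarate, at 51.3-fold and Rcan2 at 43.9-fold. The leading genes hold 4 of the 8 fixed markers. Several of them were as high in the type B class: pooled over mice, Atp6v0d2 stood at 1098 CPM in type A and 1117 in type B, Kctd16 at 201 and 217, and Rorb at 156 and 134.

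**Figure D1:**
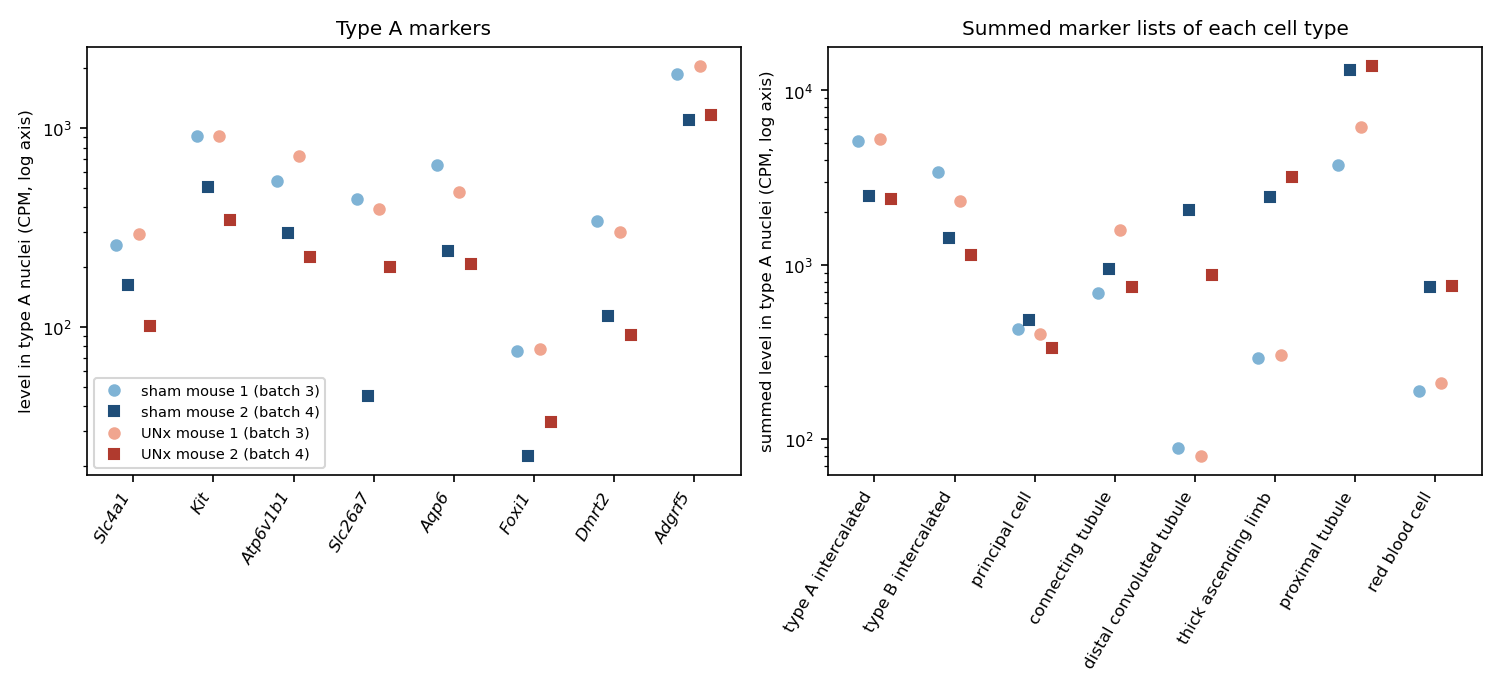
Levels in the nuclei of the class by mouse, in CPM on log axes, for each type A marker (left) and for the summed marker lists of kidney cell types (right). The sums of the type A, type B and principal lists show no rise in batch 4 like that of the thick limb, distal convoluted and proximal tubule lists, which are higher in both batch 4 mice than in both batch 3 mice. The principal sum joins members of opposite order, with Aqp2 and Fxyd4 higher in both batch 4 mice and Scnn1b higher in both batch 3 mice.

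The type B list was present through Slc4a9, Atp6v1c2 and Oxgr1, and summed to 3390, 1419, 2324 and 1132 CPM in the class. Slc26a4, the defining gene of type B cells, was near 0. It stood at 2.38, 12.5, 1.47 and 16.7 CPM in sham 1, sham 2, UNx 1 and UNx 2, against 5528 CPM in the pooled type B class. Connecting tubule markers summed to 687, 947, 1587 and 741 CPM in the same order and principal cell markers to 426, 484, 401 and 334, sums that did not follow the batch. Their members differed. Aqp2 (48.8, 149, 35.2 and 135 CPM), Fxyd4, Avpr2 and Klk1 (127, 413, 107 and 403) were higher in both batch 4 mice than in both batch 3 mice. Scnn1b (268, 132, 273 and 86.6) and Slc8a1 had the opposite order, and the other members had neither. Markers of the proximal tubule, thick ascending limb and distal convoluted tubule were present at summed levels that followed the batch. The 8 proximal tubule markers summed to 3748 CPM in sham 1 and 6186 in UNx 1 but to 13042 in sham 2 and 13733 in UNx 2. Thick ascending limb markers summed to 293, 2433, 303 and 3170 CPM, and distal convoluted tubule markers to 88.6, 2060, 80.2 and 872, again in the order sham 1, sham 2, UNx 1 and UNx 2. The 4 immune markers summed to 34.5, 69.4, 33.0 and 79.4 CPM in the class, against 55.5, 78.8, 51.6 and 67.6 in other nuclei. Of these, Cd3e was at 0 in all 4 mice. Ptprc stood at 16.7, 15.0, 23.4 and 15.0 CPM, above other nuclei in every mouse (8.78, 3.22, 6.47 and 4.36).

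At the level of single nuclei, a Slc4a1 molecule was found in 68.4% of class nuclei in sham 1, 71.4% in sham 2, 77.6% in UNx 1 and in 25 of 50 nuclei in UNx 2. After each nucleus was thinned to 2000 molecules the shares were 36.8%, 25.0%, 38.8% and 22.0%. In the large proximal tubule class PTS1, which should lack the gene, the shares were 0.390% to 5.81% without thinning and 0.0% to 1.40% with it. Kit was found in 80.0% to 96.4% of nuclei and Atp6v1b1 in 84.0% to 94.9%. Slc34a1, the phosphate cotransporter gene of the proximal tubule, was found in 44.4% of class nuclei in sham 1 and 57.1% in UNx 1, but in 100% in sham 2 and 98.0% in UNx 2. With thinning the same shares were 17.1%, 19.4%, 89.3% and 90.0%, so the batches stayed apart at equal depth. Only 83 nuclei of the class had no molecule of Slc26a4, Aqp2 or Slc34a1, and the batch 4 mice held 0 and 1 of them.

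The class was not uniform in Slc26a7, the chloride and bicarbonate exchanger gene of medullary type A cells. A Slc26a7 molecule was found in 91 of the 293 nuclei, which is 30.8%, 10.7%, 34.7% and 36.0% by mouse. Nuclei without it carried more Calcr, at 167 CPM against 51.6 in nuclei with it, pooled over mice. Trpm3, a cation channel gene of the transient receptor potential family, stood at 819.8 CPM without Slc26a7 and 280.5 with it. Slc4a9, a bicarbonate transporter gene best known from type B cells, stood at 1175 CPM without and 766 with. Calcr was lower in nuclei with Slc26a7 in each mouse. Slc4a1 and Kit had no such order: Kit was higher with Slc26a7 in 3 mice but lower in UNx 2 (249.6 CPM with, 410.3 without), and in sham 2 Slc4a1 was 0 in the 3 nuclei with it and 183 CPM without. The split used a measured gene and depends on depth, so it has no test.

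Within the nuclei lacking Slc26a7, Trpm3 stood at 1358 CPM in sham 1, 525 in sham 2, 785 in UNx 1 and 271 in UNx 2. In those with Slc26a7 the values were 312, 435, 358 and 143 CPM, the sham 2 value coming from 3 nuclei. In nuclei lacking Slc26a7, Slc4a9 stood at 1956, 778, 988 and 515 CPM in the same order, and in those with it at 1308, 333, 826 and 216. Except for Trpm3 in batch 3 nuclei with Slc26a7, both genes were lower in UNx than in sham within each batch on either side of the split.

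The share of nuclei in the class was described in each mouse, since 2 mice against 2 cannot give an exact permutation p below 0.333. The class made up 2.19% of all nuclei in sham 1 (exact 95% Clopper-Pearson interval 1.81% to 2.62%), 1.06% in sham 2 (0.706% to 1.53%), 1.90% in UNx 1 (1.55% to 2.31%) and 1.49% in UNx 2 (1.10% to 1.95%). These intervals cover counting error only. The means were 1.63% ± 0.80 (SD, n = 2) in sham and 1.69% ± 0.29 (SD, n = 2) in UNx, so the groups overlapped and differed by less than the spread between mice. Within batch 3 the share was lower after UNx and within batch 4 it was higher.

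Of the intercalated nuclei, the type A class made up 82.4% in sham 1 and 38.4% in sham 2, against 65.3% in UNx 1 and 56.2% in UNx 2. As a share of the collecting system classes it gave 18.8%, 7.49%, 15.4% and 12.1% in the same order. The UNx mice lay between the sham mice under both denominators.

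**Figure D2:**
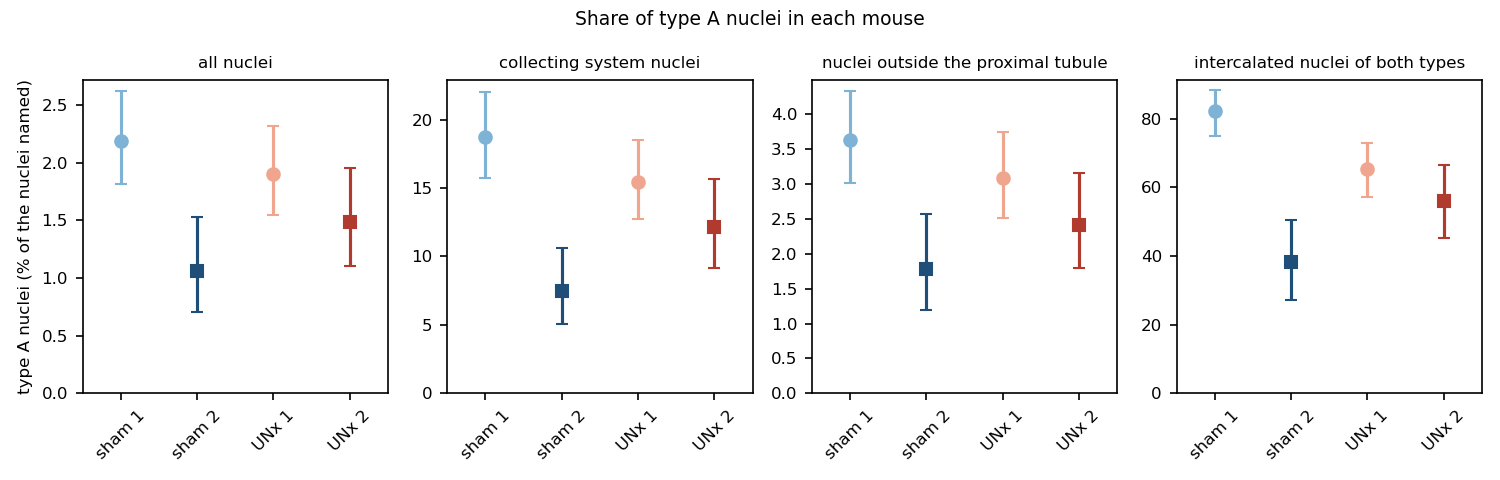
Share of nuclei in the type A class by mouse, in percent, with exact 95% intervals for counting error, for several denominators. The UNx mice lie between the 2 sham mice in each panel.

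The comparison of UNx with sham asks what the type A cells of the remaining kidney express 24 h after the other kidney is removed. The called changes described first are a fall of Slc4a9 and Trpm3 and a rise of mitochondrially encoded transcripts and of Odc1. Slc4a9 and Trpm3 were well above all other nuclei pooled. Slc4a9 was nonetheless higher in the type B class in every mouse, at 3076 CPM pooled against 1047 in type A. In all other nuclei, Trpm3, Odc1 and the called mitochondrial transcripts moved the same way in both batches, and Slc4a9 did not. Genes of the proton pump did not pass the test. All these calls rest on comparing mice within a batch. Without the batch, edgeR's quasi-likelihood test on molecules summed per mouse called 0 of 8778 genes (0.0% called) at an adjusted p under 0.05, with 30 at an unadjusted p under 0.05, and DESeq2 and limma-voom also called 0. With the batch as a term, which leaves 1 residual degree of freedom, edgeR called 70 of the genes tested (0.797% called). Of these, 38 were higher (0.433%) and 32 lower (0.365%) in UNx. The error of this fit came wholly from spread shared across genes. Its SEs and p-values therefore do not measure a gene's own disagreement between the batches. All fold changes and adjusted p-values below come from that edgeR fit with the batch and Benjamini-Hochberg adjustment unless stated.

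The number of calls depended on the very deep nuclei and on the tool. Without nuclei above 15000 molecules, the fit with the batch called 27 of 7728 genes (0.349%), 22 higher (0.285%) and 5 lower (0.0647%), and 24 of them were among the 70. With the batch, limma-voom called 89 (1.01%), 45 higher (0.513%) and 44 lower (0.501%), 65 of them shared with edgeR, while DESeq2's Wald test called 3 (0.0342%), namely mt-Co2, mt-Nd5 and 9030624G23Rik. The 2 batches gave separate estimates that share no mouse. Across 6041 genes of at least 30 CPM, the log2 fold changes of batch 3 and batch 4 had a Pearson correlation of 0.121 and a Spearman correlation of 0.102, and 53.6% of genes had the same sign. Across 2207 genes of at least 100 CPM the Pearson correlation was 0.235. Genes within a library are not independent, so these values have no p.

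**Figure D3:**
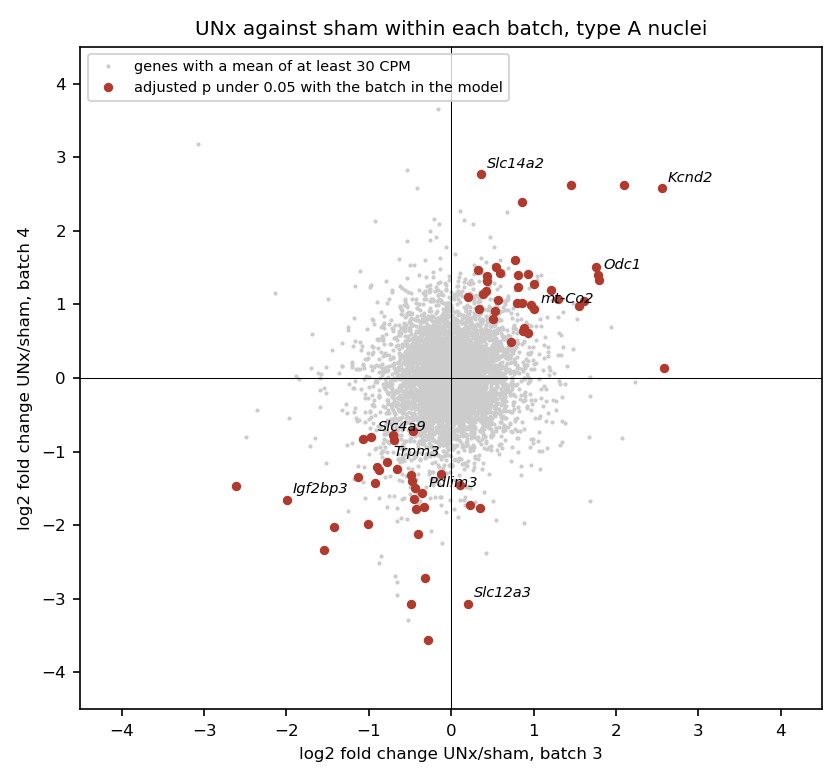
Log2 fold change of UNx over sham in batch 3 (x axis) and batch 4 (y axis) for genes in the type A class, 1 point per gene, with genes called by the edgeR fit with the batch coloured. Most genes form a cloud around 0 with a Pearson correlation of 0.121, and the called genes lie mainly in the corners where both batches moved the same way. The fit that made the calls combines these same changes, so the selection itself favours that position.

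Slc4a9 stood at 1759.7 CPM in sham 1, 731 in sham 2, 929 in UNx 1 and 393 in UNx 2. Each UNx mouse was lower than the sham mouse of its batch, although the groups overlapped across batches. The log2 fold change was -0.90 ± 0.18 (SE), with an adjusted p of 3.12e-04. It was -0.97 within batch 3 and -0.81 within batch 4. Without the deep nuclei it was -1.15 (adjusted p = 7.66e-07). Without the batch, edgeR gave -0.92 ± 0.66 with an unadjusted p of 0.219.

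In the type B class, where Slc4a9 is a defining gene, its level was 3475, 2321, 5633 and 1853 CPM in sham 1, sham 2, UNx 1 and UNx 2. It was higher in UNx in batch 3 and lower in batch 4, and the fold change missed the threshold (0.21, adjusted p = 0.991). The difference between the classes was a log2 value of -1.14 ± 0.28 (SE) with an unadjusted p of 0.00128 and an adjusted p of 0.999 in edgeR, so it did not pass over the 9683 genes tested.

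Trpm3 (chromosome 19, 22139046 to 22995410, plus strand) stood at 1041 CPM in sham 1, 515 in sham 2, 629.7 in UNx 1 and 219 in UNx 2, which again was lower after UNx within each batch. Its log2 fold change was -0.94 ± 0.19 (SE), with an adjusted p of 3.07e-04. Without the deep nuclei it was -1.15 (adjusted p = 4.23e-06). Trpm3 was at 99.3, 54.6, 81.3 and 34.5 CPM in all other nuclei and at 311, 96.8, 208 and 55.9 in the type B class, where UNx was also the lower mouse of each batch.

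In a split made after the values were seen, 7 of the 70 called genes were at least 2 times as high in the class as in other nuclei, against 8.35% of the 8778 tested genes, which is a similar share. Besides Slc4a9 and Trpm3, the lower ones were Pdlim3 and the unnamed transcripts Gm50321 and 5330438D12Rik. Pdlim3 stood at 348, 172, 281 and 53.5 CPM and had a log2 fold change of -0.79 ± 0.22 (adjusted p = 0.0473), which became -0.57 without the deep nuclei (adjusted p = 0.655). The higher ones were Gm43305 and Kcnd2, a potassium channel gene. Kcnd2 stood at 23.0, 0, 154 and 15.6 CPM, yet only 7, 0, 6 and 4 nuclei held a molecule of it, and 3 nuclei held 83.5% of them in UNx 1 and 89.2% in UNx 2. Without the deep nuclei, 1 higher and 3 lower genes of these 7 were still called, which are Kcnd2, Slc4a9, Trpm3 and 5330438D12Rik.

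**Figure D4:**
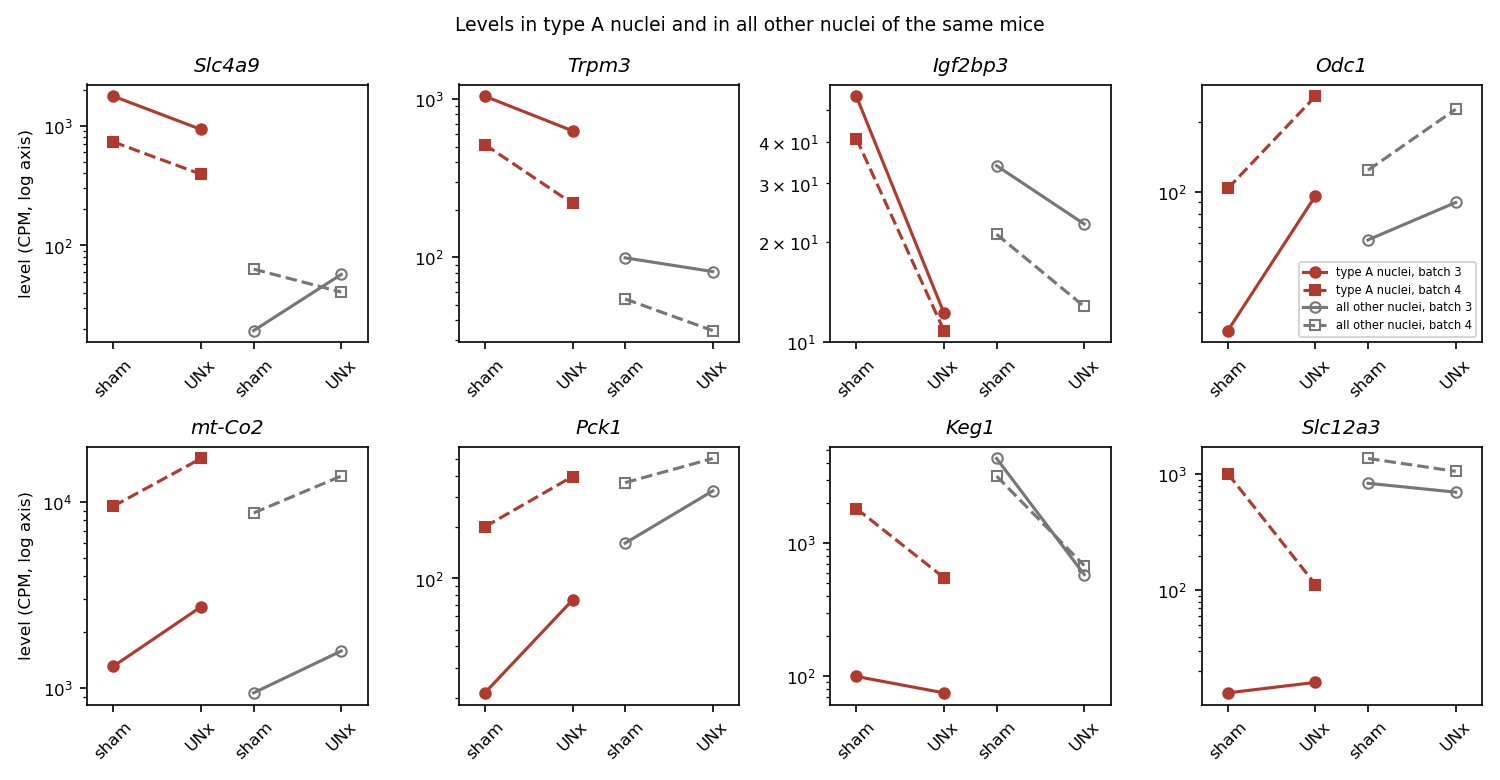
Levels of genes named in the text by mouse, in CPM on a log axis, in the type A class (filled symbols) and in all other nuclei (open grey symbols). Lines join the sham and UNx mouse of each batch. In the type A class, Slc4a9 and Trpm3 fall along both lines, while the lines of Odc1 and mt-Co2 rise from starting levels that differ by batch.

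Transcripts of the mitochondrial genome, which encode subunits of the respiratory chain, made up 11 of the 38 rising genes. All 13 passed the filter on low counts, and none was called lower. The other 2 were mt-Atp8 and mt-Nd6, and mt-Nd6 had lower estimates in both batches (log2 fold change -0.89, adjusted p = 0.761). mt-Co2 stood at 1312 CPM in sham 1, 9524 in sham 2, 2739 in UNx 1 and 17194 in UNx 2, a log2 fold change of 0.97 ± 0.16 (SE), with an adjusted p of 3.34e-06. mt-Nd5 rose by 1.18 on the log2 scale (adjusted p = 1.18e-06), and mt-Nd3 stood at 64.2, 393, 158 and 853 CPM. The levels differed more between batches than between groups. Other nuclei showed the same pattern, with mt-Co2 at 943, 8753, 1584 and 13834 CPM, and all 11 genes were higher after UNx there in both batches. Without the deep nuclei 9 of the 11 were still called. Mitochondrial transcripts in a nucleus preparation come from outside the nucleus, and the part that cytoplasmic carry-over plays was not tested. Among the 39 nuclear genes of the respiratory chain, all of which passed the filter, none was called in either direction, and their median log2 fold change without the batch was 0.10 beside 0.01 for all genes tested.

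Odc1, which encodes ornithine decarboxylase, the first enzyme of polyamine synthesis (chromosome 12, 17544794 to 17551505, plus strand), stood at 25.0 CPM in sham 1, 103 in sham 2, 96.0 in UNx 1 and 259 in UNx 2. Both UNx mice were above the sham mouse of their batch, at a log2 fold change of 1.61 ± 0.27 (SE), with an adjusted p of 3.38e-06. It was 1.78 within batch 3 and 1.40 within batch 4. The type B class gave 15.8, 91.4, 58.9 and 191 CPM and all other nuclei 61.8, 124, 89.8 and 228, so the same direction was seen outside the class in both batches.

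Of the 70 called genes, 44 were lower in the class than in all other nuclei, 20 of them higher and 24 lower in UNx, where 40.8% of all 8778 tested genes were lower in the class than in other nuclei. Fixed markers of other tubule segments made up 7 of all the calls, 2 of the distal convoluted tubule, 1 of the thick limb and 4 of the proximal tubule. The transcript 9030624G23Rik had the lowest adjusted p of this group among those still called without the deep nuclei, at 15.4, 57.0, 49.5 and 351 CPM, and its log2 fold change was 2.32 (adjusted p = 1.96e-10). Slc12a3, the sodium chloride cotransporter gene of the distal convoluted tubule, stood at 13.1 CPM in sham 1, 1016 in sham 2, 16.1 in UNx 1 and 112 in UNx 2. In sham 2, 3 nuclei held 90.8% of its molecules, and without the deep nuclei its log2 fold change went from -2.58 (adjusted p = 6.62e-16) to -0.02 (adjusted p = 0.999). Slc14a2, a urea transporter gene of the inner medulla, stood at 123, 82.9, 164 and 550.5 CPM. In UNx 2, 3 nuclei held 85.2% of its molecules, and its log2 fold change of 1.49 (adjusted p = 1.24e-07) became 0.40 without the deep nuclei (adjusted p = 0.999).

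The proximal tubule genes moved in both directions. Among the 8 fixed markers, Kap, Slc22a6 and Slc7a13 rose and Slc5a12 fell, and 0 of the 8 were called without the deep nuclei. Pck1, which encodes the gluconeogenic enzyme phosphoenolpyruvate carboxykinase, stood at 21.4 CPM in sham 1, 201 in sham 2, 74.7 in UNx 1 and 395 in UNx 2, with a log2 fold change of 1.28 ± 0.25 (SE), with an adjusted p of 1.64e-04. Other nuclei gave 161, 363, 325 and 504 CPM for Pck1. Umod, the uromodulin gene of the thick ascending limb, stood at 72.5, 617, 141 and 905 CPM, with a log2 fold change of 0.74 (adjusted p = 0.0411). Keg1 fell by 1.22 on the log2 scale (adjusted p = 5.01e-06), but missed the threshold without the deep nuclei (adjusted p = 0.295), and stood at 99.3, 1817, 74.7 and 548 CPM in the class against 4322, 3186, 579.5 and 677 in other nuclei. Of these 44 genes, 35 moved the same way in other nuclei in both batches and 9 were still called without the deep nuclei. Among all 70 calls, 58 moved the same way in other nuclei in both batches. The share over all genes tested was not computed. The part of transcripts carried over from other cells or of joined nuclei was not tested.

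The remaining 8 called genes, which are not mitochondrially encoded, lay between the level of other nuclei and 2 times that level. Igf2bp3, which encodes an RNA-binding protein (chromosome 6, 49085223 to 49214957, minus strand), stood at 54.9 CPM in sham 1, 40.9 in sham 2, 12.2 in UNx 1 and 10.8 in UNx 2. The groups did not overlap. Its log2 fold change was -2.11 ± 0.52 (SE) with the batch, with an adjusted p of 0.00985. Without the batch it was -2.10 ± 0.48, with an unadjusted p of 0.00711 in edgeR, the lowest of all genes tested. Without the deep nuclei it stood at -1.93 (adjusted p = 0.197). Noct, which encodes the circadian phosphatase nocturnin, stood at 63.2, 31.8, 128 and 86.3 CPM, also without overlap, and rose by 1.15 in log2 terms, with an SE of 0.31 and an adjusted p of 0.0263. Without the deep nuclei Noct stood at 0.94 (adjusted p = 0.478).

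Gm42418, a transcript that overlaps ribosomal RNA sequence, took 0.245% of class molecules in sham 1, 1.41% in sham 2, 0.370% in UNx 1 and 3.76% in UNx 2 and was among the called genes. Cmss1, Camk1d and Lars2, called beside it, likewise were highest in UNx 2 and second highest in sham 2, and Camk1d stood at 141, 502, 183 and 1317 CPM. In other nuclei Camk1d stood at 152, 532, 160.4 and 1324 CPM, nearly the same values.

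The proton pump genes showed no call in either direction. Of the 13 listed subunits of the cytoplasmic V1 sector, which binds and splits ATP, 11 passed the filter. Without the batch, 4 had higher and 7 lower estimates, and the median log2 fold change was -0.04. Of 12 listed genes of the membrane V0 sector and its accessory proteins, 10 passed, 5 in each direction in the same fit, with a median of -0.05. Over all 8778 genes the median was 0.01. In both batches 3 V1 genes were lower and 0 higher, and 4 V0 genes were lower and 1 higher. Of all genes tested, 2249 were lower and 2319 higher in both batches. With the batch and without the deep nuclei the medians were -0.07 for V1, -0.19 for V0 and 0.02 for all genes.

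Values of the class-rich subunits are given by mouse, since 2 mice per group cannot show that the groups were alike. Atp6v1b1, with the levels given above, had a log2 fold change of 0.08 ± 0.19 (SE), with an adjusted p of 0.998. Atp6v1g3, a kidney-rich V1 subunit, stood at 1099 CPM in sham 1, 316 in sham 2, 952 in UNx 1 and 233 in UNx 2, and Atp6v1c2 at 939, 449, 923 and 519. The catalytic subunit Atp6v1a stood at 716, 338, 688 and 442 CPM and Atp6v1e1 at 289, 198, 242 and 157. In each of these the difference between batches exceeded that between groups.

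Among V0 genes, Atp6v0a4, the subunit mutated in another form of distal renal tubular acidosis, stood at 1278, 974, 1567 and 726 CPM in sham 1, sham 2, UNx 1 and UNx 2. Its log2 fold change was -0.03 ± 0.18 (SE) with the batch, with an adjusted p of 0.998. Without the batch it was 0.02. Atp6v0d2 stood at 1533, 538, 1385 and 534 CPM, and Atp6v0b at 643, 385, 596 and 221. Atp6v0c, part of the proton-carrying ring, stood at 143, 183, 141 and 94.9 CPM and had the lowest p of this list without the batch. Its groups did not overlap, its log2 fold change was -0.42 ± 0.24 and its adjusted p was 0.807.

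Of 18 listed acid-base transporters and carbonic anhydrases, 15 passed the filter and Slc4a9 was the 1 called gene. Slc4a1 had a log2 fold change of -0.15 ± 0.22 (SE), with an adjusted p of 0.998. Car2, the cytosolic carbonic anhydrase, stood at 934 CPM in sham 1, 385 in sham 2, 880.3 in UNx 1 and 276 in UNx 2. The membrane enzyme Car12 stood at 824, 448, 628 and 547 CPM, and the ammonia channel gene Rhcg at 703, 369.7, 688 and 357. Slc4a7, a sodium bicarbonate cotransporter gene, stood at 25.6, 10.0, 38.1 and 43.3 CPM with no overlap of the groups, but its log2 fold change of 1.07 ± 0.48 had an adjusted p of 0.531. For the exchanger Slc26a7 the values were 440.0, 45.1, 393 and 201 CPM, and the adjusted p was 0.371.

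**Figure D5:**
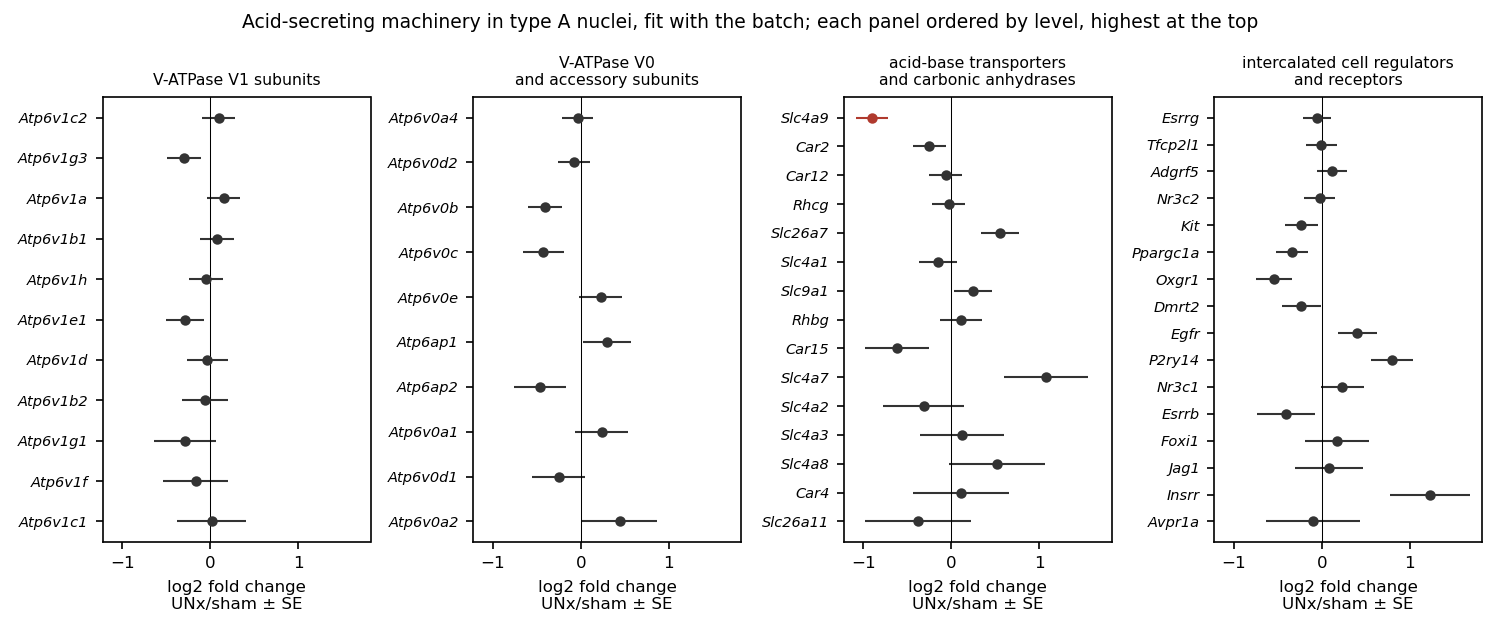
Log2 fold change of UNx over sham with standard error, from the edgeR fit with the batch, for tested genes of the proton pump and of acid-base transport in the type A class. Slc4a9 at -0.90 is the 1 called gene, and the pump subunits lie around 0.

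None of the 16 tested of 19 listed regulators and receptors was called. The estrogen-related receptor gene Esrrg stood at 5767, 3953, 5729.8 and 3603 CPM in sham 1, sham 2, UNx 1 and UNx 2, and Tfcp2l1, a transcription factor gene needed to form intercalated cells, at 2569, 931, 2379 and 988. P2ry14, a receptor for UDP-glucose on these cells, stood at 138 and 80.5 CPM in sham and at 233 and 147 in UNx, so the groups did not overlap. Its log2 fold change of 0.80 ± 0.24 (SE) had an adjusted p of 0.0704. Kit had a log2 fold change of -0.23 ± 0.19 (adjusted p = 0.959). None of the 8 type A markers was called, and in the fit without the batch 4 had higher and 4 lower estimates.

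Likewise none of 16 tested of 20 listed ion channels, pumps and chloride transport genes was called. The sodium pump subunit gene Atp1b1 stood at 614, 832, 677 and 951 CPM in the same order of mice. The kinase gene Wnk1 stood at 784, 566, 721 and 447 CPM. Wnk4, a related kinase gene, had a log2 fold change of -0.77 ± 0.33 (SE) and an adjusted p of 0.482.

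Among lists of general responses, 1 gene beside the mitochondrially encoded ones was called. This was Spp1, the osteopontin gene, in the tubular injury list. It stood at 164 CPM in sham 1, 339 in sham 2, 104 in UNx 1 and 176 in UNx 2, and fell by 0.78 on the log2 scale, with an SE of 0.22 and an adjusted p of 0.0465, but without the deep nuclei it stood at -0.60 (adjusted p = 0.667). The other 5 tested genes of that list were not called. Genes of the cell cycle were too low to test: 1 of 23 DNA replication genes and 0 of 22 mitosis genes passed the filter. The 1 that passed, Pola1, stood at 40.1, 13.7, 49.8 and 30.0 CPM.

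No gene was called among the tested genes for cholesterol synthesis (17 of 25 tested, 13 higher and 4 lower, median log2 fold change without the batch 0.14), fatty acid oxidation (20 of 21, 13 and 7, median 0.11) or the unfolded protein response (15 of 19, 11 and 4, median 0.14). The ribosome assembly list also had none (14 of 22, 11 and 3, median 0.16). Directions and medians in these lists come from edgeR without the batch, where the lowest p-values belonged to Sqle, Acadm, Edem1 and Nop10. Acadm, which encodes the medium-chain acyl-CoA dehydrogenase, stood at 118, 193, 166 and 351 CPM and had an adjusted p of 0.11 with the batch. Sqle, the squalene epoxidase gene, stood at 13.1, 27.6, 17.6 and 53.7 CPM.

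In the fit without the batch, the immediate early genes had the most negative median of these lists, -0.69 over 7 tested of 21, with 2 higher and 5 lower. None was called with or without the batch. Jun, a member of the AP-1 transcription factor, stood at 155 CPM in sham 1, 37.7 in sham 2, 70.3 in UNx 1 and 23.4 in UNx 2. Its adjusted p with the batch was 0.131. Among 25 tested of 28 genes for growth and insulin signalling, 10 were higher and 15 lower in the fit without the batch. In this list 5 were lower without overlap of the groups, against 9.64% of all genes tested. Irs1, which encodes an insulin receptor substrate, stood at 317 and 224 CPM in sham and 199 and 131 in UNx, with a log2 fold change of -0.70 ± 0.21 (SE), with an adjusted p of 0.0967. The circadian clock list (11 of 17 tested, median without the batch -0.10) and the glucocorticoid list (8 of 13 tested, median without the batch 0.04) had no call either. Their lowest p-values in edgeR without the batch were those of Per3, at 21.0, 14.3, 34.0 and 29.3 CPM, and Tsc22d3, at 9.51, 33.8, 27.3 and 30.0 CPM.

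The genes named by lowest p without the batch, among those of at least 30 CPM whose groups did not overlap, all missed the threshold in that fit. Groups without overlap were common, 9.10% of tested genes being higher and 9.64% lower in this way. The 12 on the higher side were Pms1, Slc15a2, Slc14a2, Rer1, Rbbp7, Cyp7b1, Ercc5, Uhrf1bp1, Gpc5, Noct, Grip1 and Dnaja1. Of these, Slc14a2, Cyp7b1, Gpc5 and Noct were called with the batch. Gpc5, a glypican gene, stood at 29.6 and 32.4 CPM in sham and 59.0 and 175 in UNx, and was still called without the deep nuclei (log2 fold change 1.52, adjusted p = 0.0439). Grip1, a scaffold protein gene, stood at 199 and 187 CPM in sham and 348 and 285 in UNx, with an adjusted p of 0.0584 with the batch. Slc15a2, a peptide transporter gene, stood at 79.9 and 93.4 CPM in sham and 147 and 153 in UNx.

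The 12 on the lower side were Tafa1, Cacna1c, Zdhhc17, Dgkb, D3Ertd751e, Ift57, Pappa, Fign, Nudt5, Mok, Adhfe1 and Pde7b. Of these, Cacna1c, Dgkb, Fign and Adhfe1 were called with the batch. Fign, which encodes the microtubule-severing protein fidgetin, stood at 143 and 181 CPM in sham and 77.7 and 71.8 in UNx, a log2 fold change of -1.08 ± 0.26 (SE), with an adjusted p of 0.00662. Pappa, a protease that cleaves binding proteins of insulin-like growth factors, stood at 38.1 and 57.7 CPM in sham and 14.7 and 13.4 in UNx, with an adjusted p of 0.0679. Pde7b, a phosphodiesterase gene, stood at 209 and 231 CPM in sham and 144 and 111 in UNx, with an adjusted p of 0.0703. None of these 12 was called without the deep nuclei, where Cacna1c was too low to test.

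Whether the response of type A cells differed from that of their neighbours was tested as the difference of the UNx effect between classes, with the mouse as a block. Against the 161 type B nuclei, edgeR called 0 of 9683 genes (0.0% called), with 273 at an unadjusted p under 0.05, and DESeq2 called 0. The principal cell class used was MPC (654 nuclei), the class with the highest Aqp2 level. The 443 nuclei of the other principal class, CPC, were not compared. Against MPC, edgeR called 0 of 11716 (0.0%), with 146 at an unadjusted p under 0.05, and DESeq2 called 0. The type B class alone had 47 of 8228 genes called with the batch (0.571%), 34 higher (0.413%) and 13 lower (0.158%). The MPC class alone had 52 of 12035 (0.432%), 25 higher (0.208%) and 27 lower (0.224%).

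The lowest p-values of the type A minus type B difference were those of Clnk, Egr1 and Hs6st3 in the positive and Mgat4c, Slc9a9 and Rorb in the negative direction. Clnk stood at 1004, 332, 1357 and 489 CPM in type A and at 617, 119.6, 262 and 72.8 in type B, a difference of 1.44 ± 0.34 (SE) in log2 fold change. Rorb went the other way: it stood at 230.1, 100.2, 179.6 and 63.2 CPM in type A and at 21.0, 59.2, 317 and 115 in type B, a difference of -2.52 ± 0.56. Mgat4c had the lowest adjusted p of the comparison, 0.468, at 15.9, 120.3, 11.8 and 9.62 CPM in type A, where sham 2 was highest, while UNx 1 was highest in type B. The number of calls changed with the mouse left out. Such a fit leaves 1 mouse in a group, so its counts are not given.

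Against the principal class MPC the lowest p-values were those of Fh1, Ace and Gulp1 on the positive side and Cdc42ep1, Junb and Dand5 on the negative side. Fh1, which encodes fumarate hydratase, stood at 8.33, 17.5, 30.8 and 55.8 CPM in type A and 20.5, 36.2, 18.6 and 31.4 in principal nuclei, a difference of 1.91 ± 0.52 (SE) in log2 fold change. Junb, another AP-1 gene, stood at 105, 27.6, 55.7 and 25.0 CPM in type A and 27.9, 11.8, 70.5 and 19.6 in principal nuclei, a difference of -1.72 ± 0.50. Their adjusted p-values in edgeR were 1 after rounding, so no gene passed the threshold for a UNx effect that differed between type A and MPC nuclei at this depth.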

How the data were processed

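Single-nucleus RNA-seq of 4 kidneys was used, and the series' bulk libraries were not analysed here. The authors deposited a table of estimated counts of unique molecules for 32285 genes in 16500 nuclei with their cell annotation. It was made with alevin and Seurat on build mm10, per the submitters' processing notes, and 13.8% of its nonzero values are not whole (tolerance 0.001). How the authors treated doublets is not given in the sources used here. Doublets were not called or removed here. The lowest total per nucleus was 1755 molecules.

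Estimated counts were summed over the class nuclei of each mouse and rounded. Class totals were 840834 and 398865 molecules in the sham mice and 682482 and 600414 in the UNx mice, so low genes are measured least well in sham 2. Levels are CPM of the class. Genes that passed filterByExpr were tested with edgeR 4.0.16 in R 4.3.3 (quasi-likelihood, TMM factors, Benjamini-Hochberg adjustment over all genes tested, two-sided, threshold 0.05), without the batch as the planned fit. DESeq2 1.42.0, limma 3.58.1 (voom), size factors, filters, left-out mice and nuclei were alternatives. The fits were also run on simulated counts as a check of the code. These had less spread between mice than the planned fit found here, so they do not show how that fit performs on these data. Intervals were computed with SciPy 1.17.1, and the promoter sequence comes from RefSeq (GRCm38.p6).

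Replicate numbers pair mice, since the labels give each number its own batch. Deviations of same-numbered mice from their group means correlated at 0.785 over 6333 genes. The fit with the batch is therefore printed beside the planned one. Replicates differed by far more than sampling noise, with a chi-square per gene of 14.1 in sham and 17.4 in UNx. Each mouse is a separate animal.

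Named genes were the 3 markers, up to 12 genes per direction with the lowest p among those of at least 30 CPM without overlap of the groups (predicted genes passed over), the 3 highest and the lowest-p members of the pump, acid-base, regulator and channel lists, and the lowest-p and called members of other lists. Between classes they were the 3 lowest-p genes per direction. 1 gene that the rule names is not reported here. Other genes named from the calls of the fit with the batch were chosen after their values were seen. The class, lists and rules were chosen with earlier results of these data known.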

Additional observations from a re-analysis of the deposited data

How the results depend on the processing

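For UNx against sham, edgeR called 0 genes in the planned fit and under each alternative without the batch, including the fits that left out 1 mouse (range 0 to 0). With the replicate block it called 70, and in combinations chosen after seeing the data 27 without nuclei above 15000 molecules, 54 without mitochondrially encoded genes, 67 without the deepest 5% of nuclei, 70 with DESeq2 size factors, 89 with limma-voom and 3 with DESeq2's Wald test. The block could not be combined with leaving out a mouse, which would leave 1 pair. Against type B nuclei, 11 genes were called without a filter on low counts, and 0 to 36 when a mouse was left out. Against the principal class MPC 1 was called without the filter. In fits without 1 mouse, a lone mouse is assumed to vary like the other group. The log2 ratio of the class share, UNx over sham, was 0.06. It was -0.52 for nuclei without a Slc26a4, Aqp2 or Slc34a1 molecule, and between -0.37 and 0.68 when a mouse was left out. The fit on those nuclei was not run, since sham 2 held 0 and UNx 2 held 1 of them. The cause of these differences was not tested.

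Estimates near 0 changed sign. Atp6v0a4, at 0.02 on the log2 scale, was -0.035 with the replicate block, -0.040 with voom, -0.035 without the deepest nuclei and -0.13 without nuclei above 15000 molecules. With the block it was -0.14 without nuclei above 15000 molecules, -0.083 without the deepest nuclei, -0.036 without mitochondrially encoded genes, -0.042 with DESeq2's test and -0.036 with its size factors. With voom, Atp6v0d2 was at 0.019, Car12 at 0.016 and Tfcp2l1 at 0.090. Leaving out each mouse in turn gave ranges across 0 for 22 of the named genes. For pump genes these were Atp6v0a4 -0.57 to 0.43, Atp6v0b -1.16 to 0.16, Atp6v0d2 -0.90 to 0.83, Atp6v1a -0.34 to 0.75, Atp6v1b1 -0.85 to 0.74, Atp6v1c2 -0.38 to 0.69, Atp6v1e1 -0.58 to 0.018 and Atp6v1g3 -1.55 to 0.90. For the other class genes they were Adgrf5 -0.29 to 0.55, Atp1b1 -0.14 to 0.46, Car12 -0.47 to 0.40, Car2 -1.20 to 0.58, Esrrg -0.37 to 0.25, Kit -0.98 to 0.33, Slc4a1 -0.99 to 0.42, Tfcp2l1 -0.77 to 0.85 and Wnk1 -0.54 to 0.051. For other lists they were Jun -2.00 to 0.32, Pola1 -0.0090 to 1.66, Sqle -0.21 to 1.50, Tsc22d3 -0.15 to 1.61 and mt-Nd3 -0.57 to 3.04.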
